A study of Arabidopsis thaliana with 28 samples.

Results

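The 5 genes described here belong to the chloroplast NDH complex and to chlororespiration in Arabidopsis thaliana. They are NdhS (AT4G23890), NdhN (AT5G58260), CRR21 (AT5G55740), CRR41 (AT1G51100) and PIFI (AT3G15840). They were taken by their probe numbers, with earlier results of these data known. They are 5 of the 3439 probes with deposited values, and each of the 5 probes is annotated to 1 gene. The series held 28 arrays of total RNA from wild-type plants of the ecotype Columbia 0. On 14 arrays the plants had grown on Murashige and Skoog (MS) medium with 2% sucrose, and on the other 14 on the same medium without it. The labels give no organ, age, culture or hybridization batch, and no allele or other agent is named for either group.

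The chloroplast NDH complex is a thylakoid membrane complex that passes electrons from ferredoxin to plastoquinone. It serves cyclic electron flow around photosystem I in the light and chlororespiration, the reduction of the plastoquinone pool in the dark. Some of its subunits are encoded in the plastid genome and the others, among them NdhS and NdhN, in the nucleus. Nuclear genes also supply the proteins that edit plastid ndh transcripts and assemble the complex. Loss of NDH activity is usually seen as the lack of a rise in chlorophyll fluorescence after the actinic light is switched off, and this screen gave the CHLORORESPIRATORY REDUCTION (CRR) genes their name.

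NdhS, CRR21 and PIFI gave signal on every array, NdhN was near the lower limit of the measurement, and CRR41 was listed at 0 throughout. None of the 3 genes with signal differed between the media by the test used. NdhS was 1.05-fold lower with sucrose, PIFI 1.05-fold higher and CRR21 1.19-fold lower. Each change was smaller than the SD between samples pooled over the 2 groups. For CRR21 the log2 change of -0.25 was about the size of the SD without sucrose (0.24) and below that with sucrose (0.47). Over the whole table, 30.7% of probes passed the same test. The quantity tested was the log2 signal after quantile normalization, which gives each array the same distribution of values.

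Several facts of the series bear on these values. Between 11.9% and 17.5% of the probes of an array were listed at 0, and the median signal of an array ran from 0.161 to 0.438 on a scale whose maximum was between 81.5 and 100. Arrays with consecutive label numbers in a group were closest to each other for 26 of 28 arrays, so they were averaged to 7 sets of 2 arrays per medium. Nothing in the labels says that the sets came from separate cultures, so p-values measure only how these sets vary, and that variation may be technical. Sucrose set 1 correlated better with the no-sucrose sets (mean r = 0.938) than with its own group (0.804). No-sucrose sets 1 and 2 had the low median signals (0.182 and 0.213) of sucrose sets 2 to 7 (0.163 to 0.213). The other no-sucrose sets had 0.344 to 0.432, and sucrose set 1 had 0.339. These 3 sets are called the sets that stood apart, and results are given with and without them. All 4 measured genes of a list of 23 photosystem and light-harvesting genes were above the floor in every set. None of the 4 root, 4 seed or 4 flower markers had a probe of its own, so the tissue could not be checked further.

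NdhS is the subunit of the NDH complex that takes part in binding ferredoxin, the electron donor. Its deposited signal without sucrose ran from 4.55 to 11.6 with a median of 7.05 over 14 arrays. With sucrose it ran from 4.20 to 11.6 with a median of 6.79, so on the deposited scale the groups overlapped over nearly their whole range. Relative to its array's median, NdhS was at 11.4 to 62.9 times without sucrose (median 19.9) and 21.9 to 61.9 times with it (median 30.9). No-sucrose sets 3 to 7 lay at 11.4 to 21.3 times, below all 14 sucrose arrays. The array medians themselves differed between no-sucrose sets 3 to 7 (0.342 to 0.438) and sucrose sets 2 to 7 (0.161 to 0.216). That difference enters the ratio. Sucrose set 1, with array medians of 0.337 and 0.340, lay close to those no-sucrose sets. The highest arrays were those of no-sucrose set 1, at 11.6 and 11.1, and 1 array of sucrose set 6, at 11.6. On every array the NdhS probe was brighter than 97.2% to 98.6% of the probes. Probe signals depend on the probe as well as on the transcript, so this rank describes the probe and not an amount of RNA relative to other genes.

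**Figure D1:**
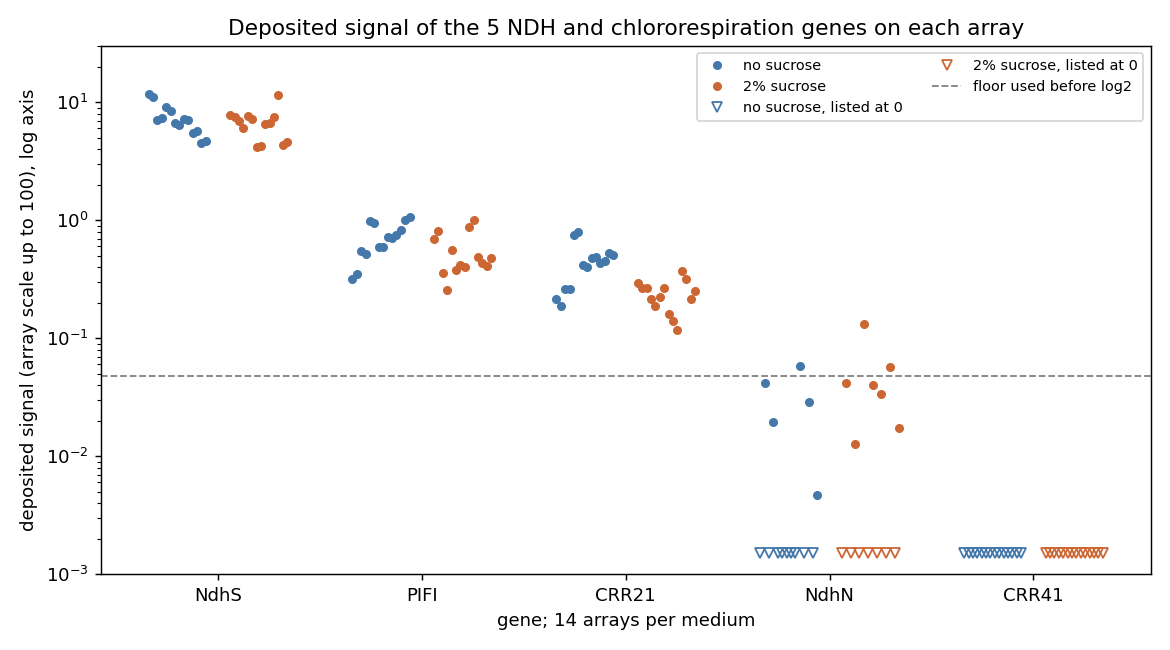
Deposited signal (log axis) of the 5 genes on each of 14 arrays per medium, in label order from left to right, with open triangles for values listed at 0 and a dashed line at the floor of 0.0483. NdhS lies above 4 on all arrays, CRR21 and PIFI lie above the floor on all arrays, NdhN is above it on 3 of 28, and CRR41 is at 0 on all 28.

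After normalization NdhS averaged 2.73 ± 0.38 in the sucrose group and 2.80 ± 0.34 in the other (log2 signal, SD, n = 7 sets each). The log2 fold change came to -0.07 with an SE of 0.19 (adjusted p = 0.837 in limma), and the 95% confidence interval ran from -0.48 to 0.34. The interval leaves room for a decrease of up to 1.39-fold and an increase of up to 1.26-fold. Only 3 of the 7 sucrose sets exceeded the mean of the no-sucrose sets. The exact two-sided permutation test over the sets gave p = 0.717. In bulk RNA, a change in the share of green cells and a change in transcript per cell cannot be told apart, here and for the other genes.

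For NdhS the SD between sets of a group was 0.36 (log2), larger than the difference between the media (log2 -0.07). The SD between the 2 arrays of a set was 0.12 (log2). The highest set, set 1 without sucrose (log2 signal 3.31), was 2.14-fold above the lowest, sucrose set 7 at 2.21. A range over all sets cannot be smaller than the difference of the group means, so it only describes the spread. The largest gap within a set was 1.43-fold, in sucrose set 6, which holds the single high array. With the 3 sets that stood apart left out, the log2 fold change of NdhS was -0.04 (limma adjusted p = 0.95). Median centring of the arrays in place of quantile normalization turned the sign, to a log2 value of 0.47 with an SE of 0.33 (adjusted p = 0.302 in limma).

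**Figure D2:**
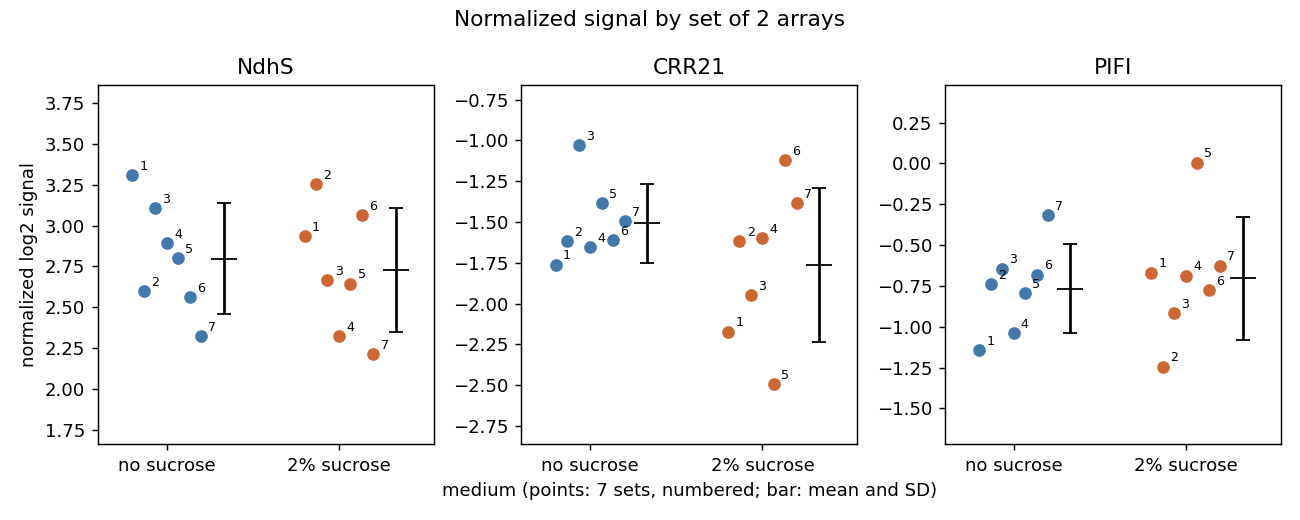
Normalized log2 signal of NdhS, CRR21 and PIFI in each of 7 sets per medium (points, numbered by set), with the mean and SD of the group beside them; the 3 panels span the same number of log2 units. The groups overlap for all 3 genes, and the largest departures are CRR21 and PIFI in sucrose set 5, at -2.49 and 0.0055.

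CRR21 is a pentatricopeptide repeat protein of the chloroplast, required for RNA editing of the plastid ndhD transcript, which encodes a membrane subunit of the complex. Its deposited signal ran from 0.187 to 0.791 without sucrose (median 0.445, 14 arrays) and from 0.118 to 0.371 with sucrose (median 0.237, 14 arrays). The low no-sucrose arrays were those of sets 1 and 2, at 0.187 to 0.263, and they lay inside the range of the sucrose arrays. No-sucrose sets 3 to 7 lay at 0.398 to 0.791, above all 14 sucrose arrays. This was a difference in deposited signal. The array medians differed in the same way against sucrose sets 2 to 7 (0.342 to 0.438 against 0.161 to 0.216). Sucrose set 1 was an exception, with array medians of 0.337 and 0.340 and a CRR21 signal of 0.296 and 0.266. The cause was not tested.

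As deposited, CRR21 was 1.81-fold lower with sucrose (log2 fold change -0.86, SE 0.29, adjusted p = 0.0435 in limma). In that setting 27% of all probes passed and 21.5% of all probes were called lower with sucrose, and the median change over the whole table was -0.31 on the log2 scale. Without the 3 sets that stood apart the deposited CRR21 signal was 2.36-fold lower with sucrose (log2 -1.24, limma adjusted p = 0.0016), against a median of -0.58 over all probes. In that setting 1921 of the 3439 probes passed, and 16.0% of those were higher with sucrose. Leaving out sets that lie away from their own group favours larger differences by construction. The deposited signal of CRR21 followed the median of its array, with r = 0.79 over the 28 arrays and r = 0.96 over the 14 no-sucrose arrays (log2 values; arrays of a set are not independent). Among the 14 sucrose arrays r was 0.11. Relative to its array's median, CRR21 was at 1.05 to 1.81 times the median without sucrose and at 0.57 to 2.04 times with sucrose, and these ranges overlapped.

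**Figure D3:**
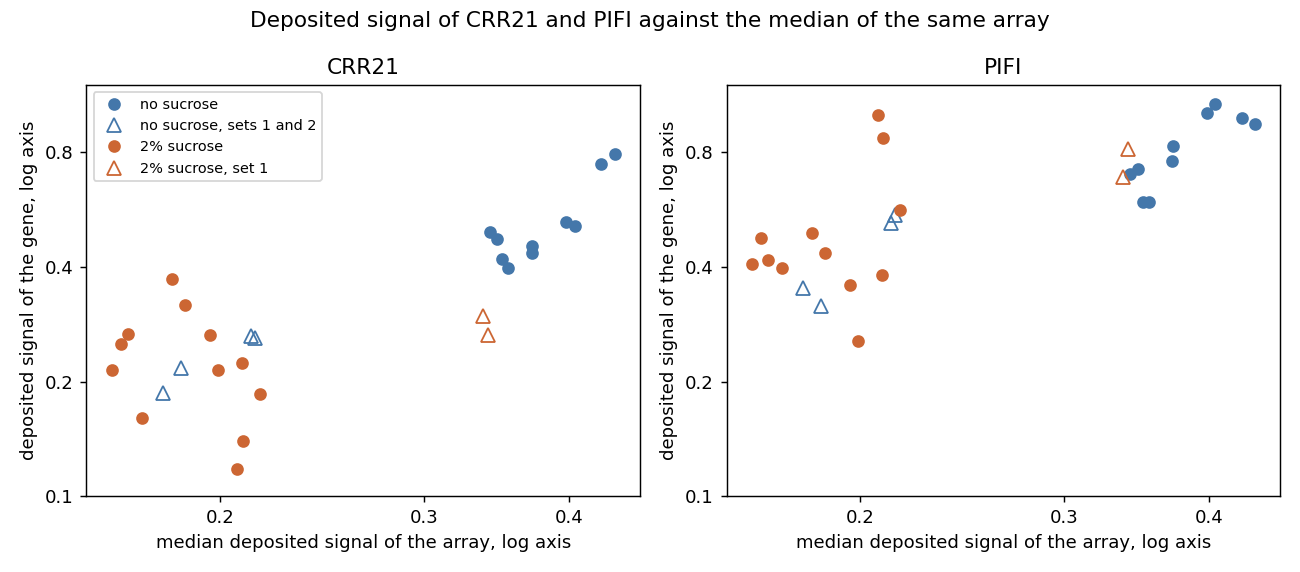
Deposited signal of CRR21 (left) and PIFI (right) on each array against the median deposited signal of all probes of that array, both on log axes, with open triangles for the 3 sets that stood apart. Arrays with a median above 0.34 other than those of sucrose set 1 are all no-sucrose arrays and carry the highest CRR21 signals.

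After quantile normalization CRR21 was not called. The sucrose sets averaged -1.76 ± 0.47 and the no-sucrose sets -1.51 ± 0.24 (log2 signal, SD, n = 7 each). The log2 fold change came to -0.25 with an SE of 0.20 (adjusted p = 0.351 in limma), and the 95% confidence interval ran from -0.68 to 0.17, that is, from 1.60-fold lower to 1.12-fold higher. The lowest sets were sucrose sets 5 and 1, at -2.49 and -2.17. The highest was no-sucrose set 3 at -1.03, followed by sucrose set 6 at -1.12. The exact permutation test gave p = 0.235, and 2 of the 7 sucrose sets exceeded the mean of the other group. Under median centring of the arrays its log2 value was -0.24 (adjusted p = 0.436 in limma). CRR21 had the widest range of the 3 genes, 2.76-fold between its extreme sets, with an SD of 0.38 between sets and 0.19 between arrays of a set (log2).

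PIFI, named for the post-illumination chlorophyll fluorescence increase, is a chloroplast protein needed for NDH-dependent chlororespiration without being a subunit of the complex. Its deposited signal ran from 0.316 to 1.07 without sucrose (median 0.712, 14 arrays) and from 0.255 to 1.0 with sucrose (median 0.454, 14 arrays). The lowest no-sucrose arrays were again those of set 1, at 0.316 and 0.351. The highest sucrose arrays were those of set 5, at 0.871 and 1.0, and the next were those of set 1, at 0.690 and 0.817. The ranges overlapped almost entirely, through no-sucrose sets 1 and 2 and sucrose sets 1 and 5. No-sucrose sets 3 to 7 lay at 0.590 to 1.07, and the sucrose arrays outside sets 1 and 5 reached at most 0.562. The overall signal of these arrays differed in the same way. The deposited PIFI signal followed the array median too, with r = 0.76 over the 28 arrays, 0.91 within no sucrose and 0.53 within sucrose. For NdhS r was 0.02 over the 28 arrays, but the relations within the media had opposite signs, at -0.60 within no sucrose and 0.49 within sucrose.

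Normalized, PIFI averaged -0.70 ± 0.38 over the sucrose sets and -0.77 ± 0.27 over the no-sucrose sets (log2 signal, SD, n = 7 each). The log2 fold change came to 0.06 with an SE of 0.17 (adjusted p = 0.838 in limma), and the 95% confidence interval ran from -0.31 to 0.44. The interval reaches from 1.24-fold lower to 1.35-fold higher, and 4 of the 7 sucrose sets exceeded the mean of the other group (exact permutation p = 0.732). Sucrose set 5 held the highest value, 0.0055, and without it the log2 fold change was -0.054 (limma adjusted p = 0.831). The extreme sets differed 2.38-fold, with an SD of 0.33 between sets and 0.16 between arrays of a set (log2). As deposited, PIFI had a log2 fold change of -0.41 (limma adjusted p = 0.303). Without the 3 sets that stood apart the deposited value was -0.77, 1.71-fold lower (limma adjusted p = 0.0312), against the median of -0.58 over all probes. In that setting 1921 of the 3439 probes passed, so such a call is not particular to PIFI.

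**Figure D4:**
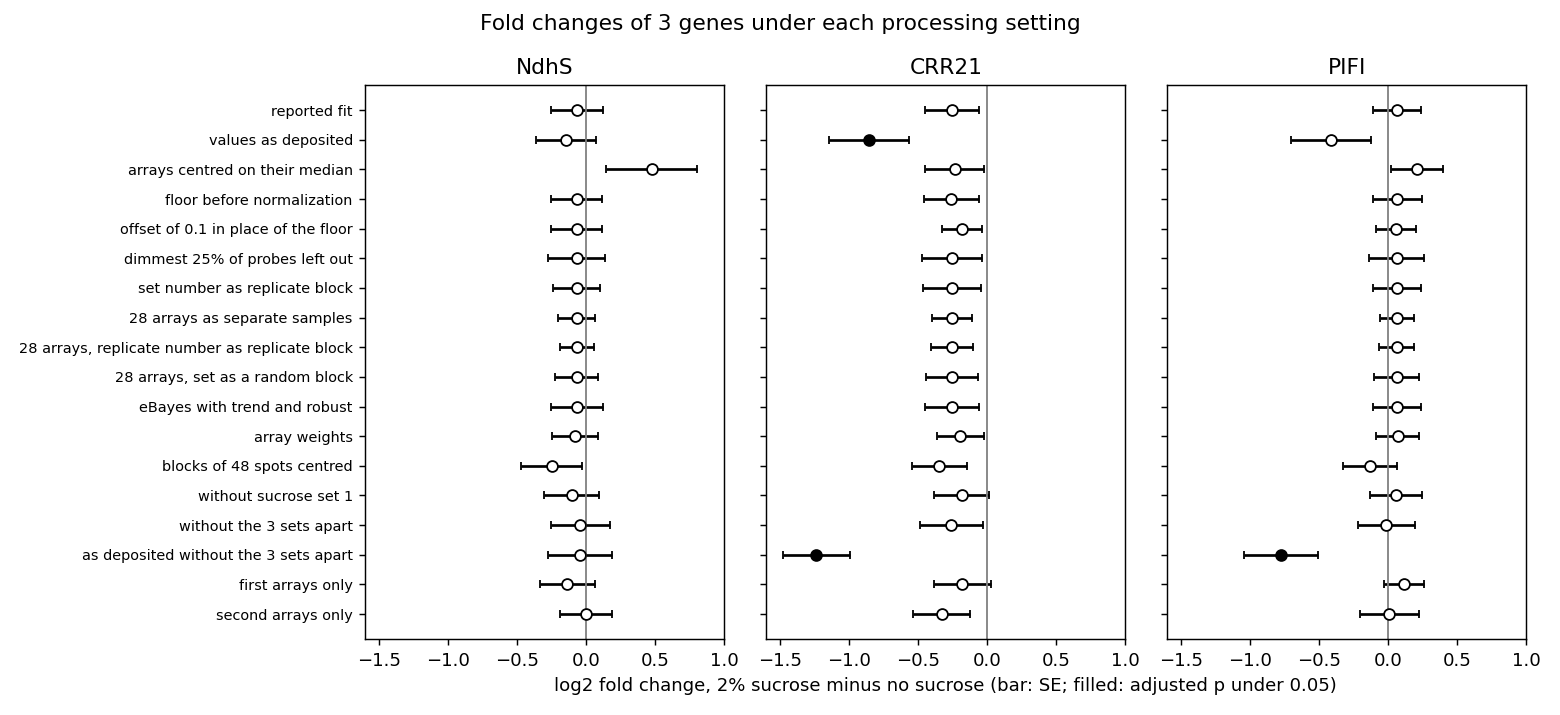
Log2 fold change, 2% sucrose minus no sucrose, of NdhS, CRR21 and PIFI under each processing setting (points; bars are the SE; filled points passed an adjusted p of 0.05). Filled points occur only for CRR21 as deposited, at -0.86, and for CRR21 and PIFI as deposited without the 3 sets that stood apart, at -1.24 and -0.77.

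NdhN, a nucleus-encoded subunit of the stroma-exposed part of the complex, was listed at 0 on 16 of 28 arrays, 9 without sucrose and 7 with it. Its highest deposited signal was 0.132, on 1 array of sucrose set 3, and only 3 arrays, 1 without sucrose and 2 with it, lay above the floor of 0.0483. After normalization, the scale of the fit, 2 of the 7 sucrose sets and 6 of the 7 no-sucrose sets of NdhN were at the floor. The fitted log2 difference of 0.19 (adjusted p = 0.334 in limma) rests on values at or near the floor and is not read as a fold change. The values above 0 were not spread evenly over the arrays. All 14 arrays that carry the first number of a set were at 0, and 12 of the 14 that carry the second number were above 0. Only 2 of the 3439 probes, NdhN included, were above 0 on at least 12 second arrays and on no first array, and 1 probe showed the reverse. The arrays as a whole did not differ in this way, with a mean of 491 probes at 0 on first arrays and 481 on second arrays.

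CRR41 encodes a stromal protein that takes part in assembling the stroma-exposed arm of the NDH complex. Its probe was listed at 0 on all 28 arrays, as were 98 of the 3439 probes (2.85%). The gene is therefore only listed at 0, with no level and no fold change for either medium.

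None of the 5 genes passed the limma test at an adjusted p of 0.05, against 30.7% of all probes (1055 of 3439) and 32.7% of the 692 probes of 1 gene. None passed an unadjusted p of 0.05 in limma or in the exact permutation test, against 43.1% of all probes in limma. NdhN and CRR41 could hardly have passed, so the count rests on 3 genes. The sizes of change of NdhS, PIFI and CRR21 exceeded those of 15.2%, 14.5% and 32.9% of all probes. The sets of the media overlapped for all 5 genes, and did not overlap for 1.89% of probes. Without the 3 sets that stood apart, 49.1% of all probes passed and still none of the 5 genes did.

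Few other genes of the pathway could be examined. Of 20 nucleus-encoded NDH subunits and associated antenna proteins, 2 had a probe of 1 gene, NdhS and NdhN. Of 16 assembly and RNA factors 3 had one, CRR21, CRR41 and OTP85. OTP85, a pentatricopeptide repeat protein that edits a site in ndhD, did not rise above the floor in any of the 7 sucrose sets and did so in 1 of the 7 no-sucrose sets. Of 10 genes of chlororespiration and cyclic electron flow PIFI alone was measured. No gene of these 3 lists rose or fell by the test, which 30.7% of all probes passed. NdhN, CRR41 and OTP85 were at or near the floor and could hardly have passed. The statement therefore rests on NdhS, CRR21 and PIFI and says nothing about the rest of the pathway.

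The 3 genes with signal did not differ detectably from each other in their response. The log2 ratio of NdhS to CRR21 on the same arrays differed between the media by 0.18, with a 95% interval from -0.41 to 0.80 by inversion of the exact permutation test. The ratio of NdhS to PIFI differed by -0.13 (interval -0.85 to 0.59) and that of CRR21 to PIFI by -0.32 (interval -0.97 to 0.27). All 3 had two-sided exact permutation p-values between 0.351 and 0.686, and between 0.702 and 0.732 with Benjamini-Hochberg adjustment over the 10 pairs of the 5 genes. The other 7 pairs involve NdhN or CRR41 and are not interpretable. These intervals do not show that the genes respond alike.

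Across the 14 sets, NdhS and PIFI tended to run in opposite directions, which did not hold up against correction. Pearson's r was -0.58 (permutation p = 0.0274, adjusted over the 3 relations 0.0823) and Spearman's rho -0.58 (permutation p = 0.0334, adjusted 0.10). Without the 2 sets farthest from the NdhS median r was -0.31. Leaving out extreme sets narrows the range and weakens a correlation by itself, so this cannot show on which sets the relation rested. Within the media r was -0.46 with sucrose and -0.76 without (7 sets each), and as deposited it was -0.14. NdhS with CRR21 gave r = 0.07 (permutation p = 0.803, adjusted 0.803) and rho = -0.09 (p = 0.762, adjusted 0.762). Without the 2 farthest sets r was 0.15. CRR21 with PIFI gave r = -0.29 (permutation p = 0.316, adjusted 0.473) and rho = 0.13 (p = 0.671, adjusted 0.762). There r was 0.19 without the 2 farthest sets, -0.55 with sucrose and 0.47 without.

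Several genes of other electron transport complexes did change on the same arrays, and their ratios to the NDH genes were compared. PSAN, a subunit of photosystem I, rose 1.59-fold with sucrose (log2 0.67, SE 0.17, adjusted p = 0.0131 in limma), and lost its call with blocks of 48 spots centred (1.40-fold, adjusted p = 0.0816). PSBW, a small subunit of photosystem II, fell 2.89-fold (log2 -1.53, SE 0.33, adjusted p = 0.00737 in limma), though under median centring its difference of 1.78-fold was not called (adjusted p = 0.0691). AT5G47890, on the list of mitochondrial complex I subunits, rose 2.15-fold (log2 1.105, SE 0.27, adjusted p = 0.0114 in limma) and lost its call as deposited (1.45-fold, adjusted p = 0.105). AT4G02580, on the same list, also passed, but 5 of its 7 no-sucrose sets were at the floor. PSBY and LHB1B2 were not called, with log2 fold changes of 0.38 and 0.35 (limma adjusted p = 0.267 and 0.0631). PSBY was called with blocks of 48 spots centred (1.89-fold, adjusted p = 0.0155) and with array weights (1.47-fold, adjusted p = 0.0451). LHB1B2 was called under median centring (2.15-fold, adjusted p = 0.0347), without sucrose set 1 (1.31-fold, adjusted p = 0.0441) and in the 3 fits on 28 arrays (adjusted p from 0.00503 to 0.0489). These genes were known from earlier results of the same data to include changed ones, so the comparison describes how far apart the responses lie.

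**Figure D5:**
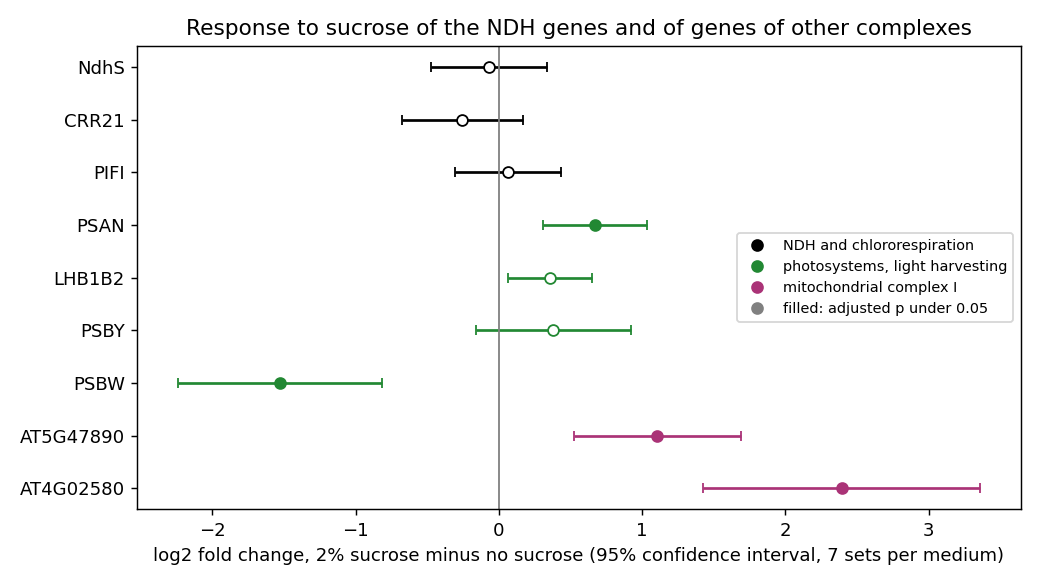
Log2 fold change, 2% sucrose minus no sucrose, with its 95% confidence interval (7 sets per medium) for the 3 NDH and chlororespiration genes with signal, 4 photosystem and light-harvesting genes and 2 genes of mitochondrial complex I; filled points passed an adjusted p of 0.05. The intervals of NdhS, CRR21, PIFI and PSBY include 0, while those of PSAN, LHB1B2, AT5G47890 and AT4G02580 lie above it and that of PSBW below it. LHB1B2 did not pass the adjusted p.

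The ratio of NdhS to PSAN was lower with sucrose by 1.67-fold (log2 -0.74, interval -1.20 to -0.29). That of NdhS to PSBW was higher by 2.75-fold (log2 1.46, interval 0.66 to 2.17). Both passed the exact permutation test with adjustment over the 18 ratios compared (adjusted p = 0.00932 each). Both also passed it on the deposited scale (adjusted p = 0.0197 and 0.0175), where a scale factor of an array cancels. The estimate for NdhS was small (log2 -0.07), and PSAN and PSBW had been called already, so these p-values largely restate those calls. PIFI gave the same directions, with log2 differences of -0.61 against PSAN and 1.59 against PSBW (exact permutation, adjusted p = 0.045 and 0.00932). CRR21 differed from PSAN by -0.92 and from PSBW by 1.28 on the log2 scale (exact permutation, adjusted p = 0.00932 and 0.0236), but its ratio to PSBW did not pass as deposited (log2 0.60, adjusted p = 0.197).

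Against LHB1B2, a light-harvesting chlorophyll protein gene, the ratio of CRR21 passed (log2 -0.61, exact permutation adjusted p = 0.00932). NdhS and PIFI had log2 differences of -0.42 and -0.29 from LHB1B2 (adjusted p = 0.0727 and 0.269, exact permutation). The ratio of NdhS to LHB1B2 passed as deposited (log2 -0.63, adjusted p = 0.0303) and without sucrose set 1 (adjusted p = 0.0462). CRR21 also passed against PSBY, the photosystem II subunit (log2 -0.63, exact permutation adjusted p = 0.025), but not as deposited (adjusted p = 0.0532). Against AT5G47890 the log2 differences were -1.17 for NdhS, -1.36 for CRR21 and -1.04 for PIFI (exact permutation adjusted p = 0.0236, 0.00932 and 0.022). As deposited, the ratio of NdhS to AT5G47890 did not pass (log2 -0.69, adjusted p = 0.137). The ratios to AT4G02580 differed by -2.46, -2.65 and -2.33 for NdhS, CRR21 and PIFI on the log2 scale, sizes that depend on the floor. Of 6 such ratios each, AT4G02580 included, 4 passed for NdhS, 6 for CRR21 and 4 for PIFI. The counts were 4, 4 and 4 as deposited, 5, 6 and 4 without sucrose set 1, and 4, 6 and 4 without the 3 sets that stood apart. At an unadjusted exact permutation p of 0.05 they were 4, 6 and 4 as well. By that rule the ratios to 37.1%, 40.6% and 36.7% of the other 2918 probes with fewer than 7 sets at the floor differed for NdhS, CRR21 and PIFI. Most of the 6 genes had been called themselves, so the counts say nothing particular about these complexes.

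The genes whose normalized signal over the 14 sets was most like that of an NDH gene were searched among 552 probes of 1 gene with at most 2 sets at the floor. For PIFI they were AT5G13410, AT5G65250 and ILA, with Pearson's r of 0.82, 0.79 and 0.78. For NdhS they were AT4G29120, AT1G13990 and the geranylgeranyl reductase gene AT1G74470, at 0.67, 0.60 and 0.58. For CRR21 they were AT1G05860, NTRC, which encodes a chloroplast NADPH-dependent thioredoxin reductase, and AT5G55570, at 0.56, 0.55 and 0.51. Spearman's rho was 0.61 to 0.81 for the PIFI partners and 0.56 to 0.68 for those of NdhS. It was 0.72, 0.43 and 0.25 for those of CRR21. These values are the highest of 552 and share the same sets, so they only describe likeness. None of the 9 genes was called between the media by limma, with adjusted p from 0.0942 to 0.852, against 32.7% of the 692 probes of 1 gene. They were chosen over the same sets for likeness to genes that were not called. That choice favours the absence of a call, which is therefore not a result about these genes.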

How the data were processed

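The table deposited by the authors holds linear intensities of 3439 probes on 28 arrays, with many zeros and no negative values. For scanning, background correction and scaling the method is not given in the sources used here, which leaves the absolute scale unknown. The intensities were quantile normalized, then set to at least 0.0483 (the floor, at the 5th percentile of positive intensities), then log2 transformed. Folds of genes near the floor depend on that choice. Groups and numbers came from the labels. Arrays 1 and 2, 3 and 4, and so on, of a group were averaged.

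Media were compared with limma 3.58.1 (lmFit, eBayes, two-sided) in R 4.3.3, adjusted by Benjamini-Hochberg over all probes at 0.05, and single values with exact permutation tests over all 3432 splits of 14 sets. The fit was tried on simulated data with independent noise for each probe and set. Those data held no shifts shared by the probes of an array and no sets that stood apart. The trial therefore does not show how the fit handles these features. Gene names came from the platform annotation and the RefSeq table of TAIR10.1: 692 probes had 1 gene, 870 several and 1877 were not listed. The genes named are the 5 genes, list genes with a probe of 1 gene, and the 3 probes most like each gene with signal. A list of pentatricopeptide repeat genes could not be made, because the table holds no descriptions. The 5 genes, lists and alternatives were chosen with earlier results of these data known, and the ratios to genes of other complexes were added after the data were seen. The number of arrays limits the precision. Alternatives covered scaling, floor, filter, blocks, array weights, spot position and sets left out.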

Additional observations from a re-analysis of the deposited data

Results flagged for a closer look

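Of 8 groups of 7 sets (4 genes, 2 media), 1 held a set far from the others by Dixon's test at the 95% level, and chance gives about 1 in 20 such groups. For NdhN, no-sucrose set 1 was at a log2 signal of -3.94 while the other 6 no-sucrose sets were at the floor of -4.37, so the gap over the range was 1 and the other values were tied. The value came from 1 of its 2 arrays, with a deposited signal of 0.0421, below the floor before normalization. Sucrose set 1, which resembles the no-sucrose sets over the whole table, was not such a set for NdhS, CRR21, PIFI or NdhN.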

How the results depend on the processing

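Of 31 alternatives each, 28 kept the direction and the absence of a call for NdhS, 29 for CRR21 and 26 for PIFI. The alternatives that changed only the filter, the blocks, the eBayes options or the averaging of arrays left the fold change itself as it was. Their direction could not differ. Leaving out sucrose set 1 is counted both as its own setting and among the fits with 1 set left out. The counts therefore overstate the number of separate checks. As deposited, log2 fold changes were -0.86 for CRR21, now called (limma adjusted p = 0.0435), and -0.41 for PIFI; without the 3 sets that stood apart the deposited values were -1.24 and -0.77 (limma adjusted p = 0.0016 and 0.0312). With arrays centred on their median NdhS was at 0.47. With blocks of 48 spots centred PIFI was at -0.13, and the fitted value of NdhN, not read as a fold change, moved from 0.19 to -0.035. Without the 3 sets that stood apart PIFI was at -0.012. Leaving out 1 set at a time gave -0.16 to 0.016 for NdhS, -0.36 to -0.13 for CRR21 and -0.054 to 0.15 for PIFI, with no call. The difference of the NdhS to PIFI ratio was 0.26 as deposited and -0.31 to 0.014 with 1 set left out. The other 2 ratios kept their direction and no call under all 19 alternatives, which hold the same repeat of sucrose set 1 and a block that leaves the difference unchanged. The cause of these changes was not tested.

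The number of probes called was 1055, with 58.9% higher on sucrose, and 20.4% higher as deposited (16.0% without the 3 sets that stood apart). It was 1729 with 28 arrays as separate samples, 1852 with array weights, 1687 without the 3 sets that stood apart and 1921 as deposited without them. It was 398 with the set number as replicate block and 1626 with the replicate number as replicate block on 28 arrays. Same-numbered sets of the media correlated at -0.53 to 0.13 and 0 of 7 resembled their own number best, so the numbers do not pair the sets. The block ended no call of the 5 genes, since none was called.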
